A study of Mus musculus with 24 samples.

Results

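The response of undifferentiated mouse marrow-derived mesenchymal stem cells (mdMSC) to the vitamin D hormone was described from 6 of the study's 24 RNA-seq libraries. Of these, 3 came from day 0 cells treated with 100 nM 1,25(OH)2D3 (VD3 below) and 3 from day 0 cells treated with ethanol vehicle, both for 24 hours. The libraries were chosen by their labels for day and treatment alone, and all genes entered the comparison. These stromal cells of the marrow have the capacity to become osteoblasts or adipocytes. The mdMSC came from a frozen stock of at most 10 passages and were grown in serum-supplemented MEM alpha without differentiation medium. Strain, sex and age are not given in the sources used here. The other 18 libraries, 3 in each of 6 groups, came from the same cells after 7 or 15 days in osteogenic medium (β-glycerophosphate and ascorbic acid) or 7 days in adipogenic medium (insulin, indomethacin and dexamethasone), again with VD3 or vehicle. They set the shared spread of the test and were compared in a last step. Within a group, day 0 libraries correlated at 0.926 to 0.977 (Pearson, log2 values) and those of the other groups at 0.978 to 0.993. The shared spread may therefore be too small for day 0. Whether replicates were separate cultures is not stated in the labels, and the p-values reflect the spread of these libraries alone, which may be technical. In bulk RNA, fewer cells of a kind and less RNA per cell cannot be told apart.

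The hormone binds the vitamin D receptor, Vdr, a nuclear receptor that pairs with a retinoid X receptor and sits on DNA at a repeated short motif. The bound receptor raises transcription of some genes, the best known being Cyp24a1, which encodes the enzyme that breaks the hormone down, and lowers that of others. In bone-forming stromal cells the hormone is known for raising Tnfsf11 (RANKL), the signal for osteoclast formation, and Spp1 (osteopontin), for acting on mineralization, and for slowing cell division in many cell types.

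Values below are RPKM (reads per kilobase of transcript, scaled to library depth) as means ± SD of 3 libraries. A log2 value is the VD3 minus vehicle difference on the log2(RPKM + 1) scale with its standard error, and understates the change of low genes. The words rose and fell are kept for an adjusted p (limma, Benjamini-Hochberg over 21097 genes) below 0.05, and other genes are given by value only. A single library stood apart. VD3 replicate 2 had an estimated 38.3 M reads against 7.09 to 10.99 M in the other 5, and a median of 0.456 RPKM on 1497 olfactory, vomeronasal and taste receptor genes against 3.39 to 4.93 RPKM. Those genes are normally silent outside sensory cells and serve here as a measure of background. Of the 1473 tested, 108 fell and 0 rose, and without VD3 replicate 2 these were 10 and 3. List counts are therefore given with and without that library. The stromal markers Cxcl12 (943 ± 15.7 RPKM with vehicle), Prrx1 (105 ± 2.83), Vcam1 (80.7 ± 4.7) and Ly6a (47.2 ± 14) were well above background, whereas Eng, Thy1 and Nt5e, also used to define mesenchymal stem cells, lay below it in the vehicle libraries. Markers of macrophages and blood cells (15 genes) summed to 21.2 to 27.2 RPKM with vehicle and to 7.81 to 21.9 with VD3, and 0 of the 8 tested rose or fell by limma, as without VD3 replicate 2. At an unadjusted p below 0.05, 0 were higher and 0 lower, beside 1376 and 5821 of the 21097 genes tested. Of the 8 markers, 3 fell without VD3 replicate 1. Their lowest sum was in VD3 replicate 2, where 4 of the 15 stood at 0. Of the endothelial, cartilage and skeletal muscle markers, 0 of 13 tested rose and 5 fell, namely Kdr, Tek, Col2a1, Col10a1 and Acta1, none above 3 RPKM in any library. Only Col2a1 remained called without VD3 replicate 2.

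VD3 changed many genes of the undifferentiated cells. In all, 840 genes rose (3.98% of those tested) and 2328 fell (11.0%). Of these 137 and 503 changed at least 2-fold on the log2(RPKM + 1) scale. With the spread of the 6 day 0 libraries alone, 582 rose and 565 fell (20400 tested). Without VD3 replicate 2, 595 rose (2.82%) and 930 fell (4.41%), and 569 and 919 of these were among the first calls. Most of the falls were of genes at background level. Below a mean of 5 RPKM 76 genes rose and 1428 fell, whereas of the 3326 averaging at least 20 RPKM 447 rose (13.4%) and 364 fell (10.9%), or 297 and 301 without VD3 replicate 2. The median log2 value over all genes was -0.27 (0.0072 with quantile normalization and 0.17 after background subtraction), and 0.04 over those averaging at least 20 RPKM. Higher genes made up 26.5% of calls, which became 57.9% with quantile normalization and 68.4% after subtraction of each library's background, so that the balance of rises and falls over all genes depends on the scaling. List counts below stand beside shares over all genes of 3.98% risen and 11.0% fallen, or 2.82% and 4.41% without VD3 replicate 2. Among genes averaging at least 20 RPKM these shares were 13.4% and 10.9%. The results below centre on genes well above background.

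**Figure D1:**
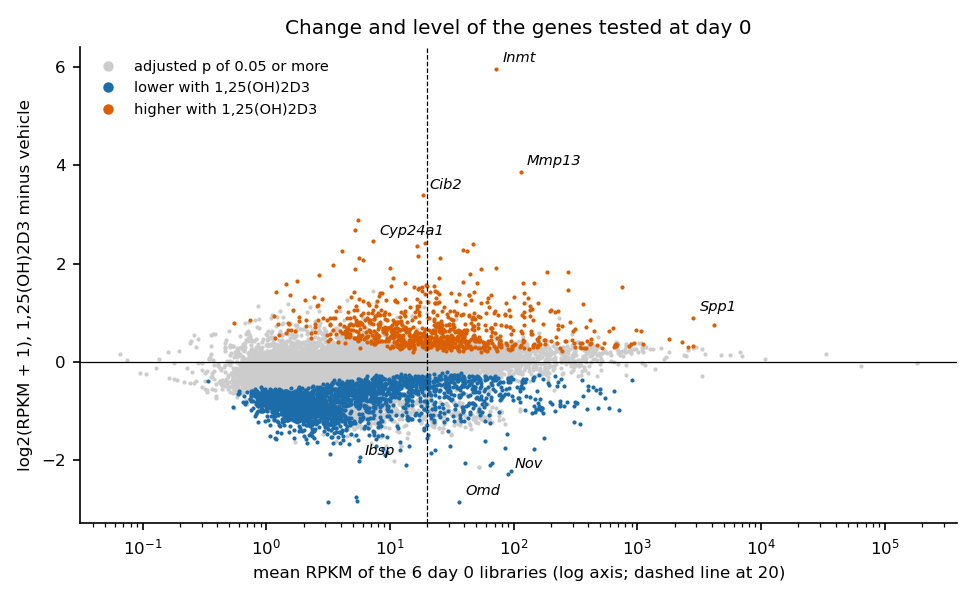
Change on the log2(RPKM + 1) scale against the mean RPKM of the 6 day 0 libraries (log axis), 1 point a gene tested, with genes that rose in orange, fell in blue and did not pass the test in grey. The blue points crowd at the left, below 5 RPKM, where 1428 of the 2328 falls lie, whereas right of the dashed line at 20 RPKM 447 genes rose and 364 fell.

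Among genes the naming rule allows (20 RPKM or more in 1 group, no predicted or RIKEN-named genes), the largest rises were of a methyltransferase and of a secreted collagenase. Inmt, which methylates tryptamine and related amines, stood at 0.922, 2.01 and 1.1 RPKM in the vehicle libraries and at 144, 151 and 133 RPKM in the VD3 libraries. That is 106-fold, from a level below the background of the vehicle libraries (log2 5.96 ± 0.20, adjusted p = 4.67e-15). Mmp13, the collagenase that opens fibrillar collagen and is made by bone and cartilage cells, stood at 13.6, 12.4 and 15.2 RPKM with vehicle and at 192, 219 and 231 RPKM with VD3. It rose 15.6-fold (log2 3.87 ± 0.12, adjusted p = 2.03e-15) and was above background in both groups. Cib2, a calcium and integrin binding protein, had 2.72, 1.96 and 2.48 RPKM with vehicle, again below background, and 37.6, 31.7 and 34.3 RPKM with VD3 (log2 3.40 ± 0.20, adjusted p = 6.95e-11). All 3 genes had their 3 vehicle libraries far below their 3 VD3 libraries, with VD3 replicate 2 inside the range of, or close to, the other VD3 libraries.

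Of the other 7, Pmaip1 (Noxa), a p53-induced protein that promotes apoptosis, went from 14.3 ± 1.58 to 79.3 ± 4.84 RPKM (log2 2.40 ± 0.11, adjusted p = 9.90e-13). Sema3e, a secreted guidance ligand of plexin D1, was at 14.7, 14.1 and 12.9 RPKM with vehicle and 68.6, 70.7 and 69.7 RPKM with VD3, a 5.01-fold rise with the smallest relative spread of the 10 in its VD3 libraries. Enpp3, an ectoenzyme that splits nucleotides and can yield pyrophosphate, went from 5.58 ± 0.677 to 28.1 ± 2.2 RPKM. The kinase Pim3 went from 8.93 ± 0.96 to 42.1 ± 1.73 RPKM, and the creatine kinase Ckb, which buffers ATP, from 29.4 ± 4.64 to 114 ± 11.8 RPKM. Ttc39c, a tetratricopeptide repeat protein, went from 5.52 ± 2.0 to 32.7 ± 2.72 RPKM. Arl5a, a small GTPase of the Golgi, had the highest level of the 10 and went from 121 ± 3.55 to 431 ± 13.1 RPKM (log2 1.83 ± 0.073). In no gene among the 10 did the groups overlap, a property of 7.91% of genes tested in this direction and one that the choice of the 10 required. Their log2 values without VD3 replicate 2 were 1.82 to 5.92, with adjusted p of at most 4.51e-08.

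**Figure D2:**
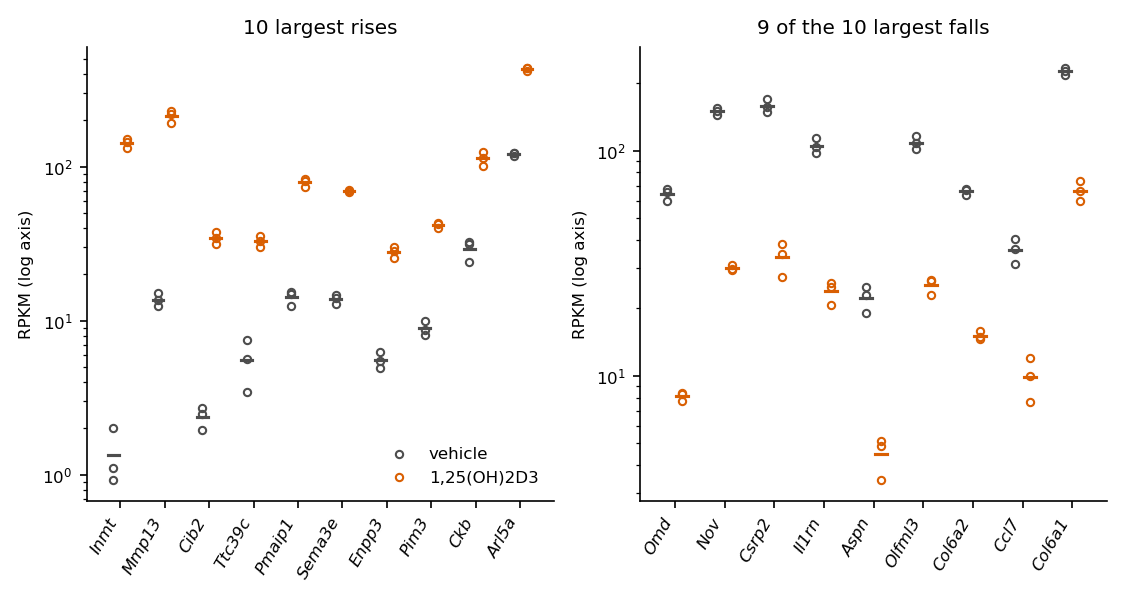
RPKM (log axis) of the 10 largest rises (left) and 9 of the 10 largest falls (right) among genes of at least 20 RPKM in the higher group, leaving out predicted, RIKEN-named, receptor, small RNA and histone genes, with 1 circle a library and a bar at the mean of each group (grey vehicle, orange 1,25(OH)2D3). Mmp13 lies at 12.4 to 15.2 RPKM with vehicle and 192 to 231 with VD3, and Omd at 59.7 to 67.7 and 7.70 to 8.40.

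The sequences before Mmp13 and before Omd and Aspn, the neighbouring genes that fell, are shown because Mmp13 and Omd had large changes and Aspn neighbours Omd. Each is the 250 bases upstream of the RefSeq start site in the GRCm38.p6 build, 5′ to 3′ on the strand of the gene. Capitals mark matches to TGANTCA (a site of AP-1 factors) or TGTGGT (a site of Runx factors), searched on both strands with no overlap between the matches found.
Mmp13, chr9:7272264-7272513, plus strand: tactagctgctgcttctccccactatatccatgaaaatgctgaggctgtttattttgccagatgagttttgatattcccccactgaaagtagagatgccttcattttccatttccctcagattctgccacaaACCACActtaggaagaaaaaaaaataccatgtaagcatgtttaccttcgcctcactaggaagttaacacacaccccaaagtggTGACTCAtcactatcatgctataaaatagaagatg
Omd, chr13:49582212-49582461, plus strand: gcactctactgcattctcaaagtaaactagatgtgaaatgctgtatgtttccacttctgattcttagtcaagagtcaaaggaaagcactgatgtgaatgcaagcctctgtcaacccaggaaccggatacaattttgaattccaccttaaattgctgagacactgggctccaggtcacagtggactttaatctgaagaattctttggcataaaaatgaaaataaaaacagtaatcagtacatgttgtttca
Aspn, chr13:49544193-49544442, plus strand: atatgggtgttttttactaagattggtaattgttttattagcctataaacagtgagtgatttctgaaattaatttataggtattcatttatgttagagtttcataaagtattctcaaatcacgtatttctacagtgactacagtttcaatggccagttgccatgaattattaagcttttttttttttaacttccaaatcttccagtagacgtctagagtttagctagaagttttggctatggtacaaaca
The Mmp13 window held 1 AP-1 match, beginning 35 bases before the start, and 1 Runx match, beginning 118 bases before it. The Omd and Aspn windows held neither. Of 32851 such windows, 6.75% held TGANTCA and 14.0% held TGTGGT. A match is a description of letters, not a bound site.

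The repeated motif of Vdr, DR3, allowing 2 mismatches over its 12 fixed positions, was found in the window of 4 of the 8 largest rises with a promoter entry and of 3 of the 6 largest falls with one, against 42.1% of all windows. With at most 1 mismatch it was found in 0 of either, against 4.92%. Receptor sites often lie far from a start site, outside these windows.

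Omd (osteomodulin), a small leucine-rich proteoglycan of bone matrix, stood at 65.3, 59.7 and 67.7 RPKM with vehicle and at 8.4, 7.7 and 8.26 RPKM with VD3. It was 7.91-fold lower (log2 -2.84 ± 0.15, adjusted p = 1.07e-11), the largest fall of a named gene at that level. Aspn (asporin), of the same family, stood at 24.9, 22.8 and 19 RPKM with vehicle and 3.43, 4.89 and 5.15 RPKM with VD3, where it lay near background (log2 -2.09 ± 0.17, adjusted p = 6.40e-09). Nov (CCN3), a secreted matricellular protein, stood at 143, 155 and 151 RPKM with vehicle and 29.4, 31 and 29.9 RPKM with VD3 (log2 -2.27 ± 0.075, adjusted p = 3.75e-15). The 2 chains of collagen VI whose genes lie side by side both fell. Col6a1 went from 226 ± 8.05 to 66.2 ± 6.73 RPKM and Col6a2 from 66 ± 2.4 to 15.1 ± 0.636 RPKM. In each of these genes every vehicle library lay far above every VD3 library.

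Further falls were of the LIM-domain protein Csrp2, which is expressed in smooth muscle (from 158 ± 10.3 to 33.6 ± 5.5 RPKM), and of Il1rn, the secreted antagonist of the interleukin-1 receptor (from 105 ± 8.19 to 23.8 ± 2.78 RPKM). The secreted glycoprotein Olfml3 went from 109 ± 7.48 to 25.2 ± 2.09 RPKM. Ccl7, a chemokine that draws monocytes, stood at 40.6, 36.6 and 31.4 RPKM with vehicle and 12, 9.98 and 7.63 RPKM with VD3 and had the widest error of the 10 (log2 -1.79 ± 0.22, adjusted p = 5.77e-06). The groups overlapped in none of the 10, as the choice required (20.2% of genes tested in this direction). Without VD3 replicate 2 their log2 values were -2.80 to -1.80, with adjusted p of at most 4.75e-05.

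Cyp24a1, the hormone's own breakdown enzyme, was listed at 1.79, 2.19 and 0.894 RPKM with vehicle, below background, and at 13.1, 12.4 and 13.6 RPKM with VD3, above it in all 3 libraries (log2 2.45 ± 0.19, adjusted p = 5.61e-09). Vdr was at 2.41, 2.48 and 2.48 RPKM with vehicle and 4.32, 3.84 and 4.24 RPKM with VD3. Its groups did not overlap, but the vehicle libraries and VD3 replicate 1 lay below their own background (log2 0.57 ± 0.18, adjusted p = 0.0333). It was lost with log2(RPKM + 0.1) (adjusted p = 0.11) and on only the 6 day 0 libraries (0.26). Of the genes for the receptor, its partners, coactivators, corepressors and the enzymes of the hormone, 3 of 19 genes tested rose and 2 fell, or 2 and 1 without VD3 replicate 2, against 3.98% and 11.0% of all genes (the falls being 10.5% of the list). The third to rise was the partner Rxrb (from 4.46 ± 1.53 to 6.81 ± 0.132 RPKM). The falls were of the serum carrier gene Gc, below background in every vehicle library, and of Pdia3 (from 48.5 ± 2.44 to 37.2 ± 3.38 RPKM), a protein disulfide isomerase. There was 1 rise without vehicle replicate 3, 4 falls without VD3 replicate 3, 1 fall without vehicle replicate 1 and 1 fall without vehicle replicate 3. The call of Vdr was lost without vehicle replicates 1, 2 and 3 or VD3 replicates 2 and 3 (adjusted p = 0.0704, 0.0715, 0.0767, 0.0568 and 0.0565), that of Rxrb without vehicle replicate 3 (adjusted p = 0.0752) and that of Pdia3 without vehicle replicates 1, 2 and 3 or VD3 replicates 1 and 2 (adjusted p = 0.109, 0.113, 0.074, 0.0948 and 0.132).

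Of a list of genes described elsewhere as targets of the hormone, 9 of 28 genes tested rose and 3 fell, or 8 and 2 without VD3 replicate 2, with a median log2 value of 0.22 against -0.27 over all genes. Besides Mmp13, Cyp24a1, Enpp3 and Vdr, the rises were of Spp1, Enpp1, Lrp5, Mgp and Thbd. Spp1, a phosphoprotein of bone matrix and among the most abundant transcripts here, stood at 2032, 1815 and 2067 RPKM with vehicle and at 3405, 3769 and 3879 RPKM with VD3 (log2 0.90 ± 0.099, adjusted p = 9.85e-07). Lrp5, a Wnt co-receptor that promotes bone formation, went from 5.07 ± 1.04 to 10.6 ± 1.07 RPKM (adjusted p = 6.71e-05), and Thbd (thrombomodulin), which restrains clotting, from 32 ± 0.873 to 61.3 ± 2.17 RPKM (adjusted p = 2.10e-08). Igfbp3, an IGF-binding protein known as a target in other cells, did not pass the test at 1.78 ± 0.115 RPKM with vehicle and 1.38 ± 0.788 with VD3, at or near background (adjusted p = 0.397). There were 6 falls without VD3 replicate 1 and 5 falls without VD3 replicate 3.

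RNA values of the signals to osteoclasts, among them a ligand and its decoy receptor, went in both directions. Tnfsf11 (RANKL), the ligand that drives osteoclast formation, stood at 1.85, 2.12 and 1.57 RPKM with vehicle and 4.06, 2.17 and 3.96 RPKM with VD3 and did not pass the test (log2 0.60 ± 0.24, adjusted p = 0.0856). VD3 replicate 2 was the low library, and without it the gene passed (adjusted p = 0.028), still near background. It also passed with quantile normalization, at 1.09 (adjusted p = 7.66e-04). Tnfrsf11b (osteoprotegerin), the decoy receptor for that ligand, stood at 9.21, 12.5 and 13.8 RPKM with vehicle and 5.38, 3.56 and 3.47 RPKM with VD3 and fell (log2 -1.32 ± 0.16, adjusted p = 3.65e-06). Ptgs2, the inducible prostaglandin synthase, rose from 6.66 ± 0.835 to 11 ± 1.26 RPKM, and the chemokine Cxcl12 fell from 943 ± 15.7 to 477 ± 24.1 RPKM (adjusted p = 1.55e-06). Of the 7 genes tested in that list 1 rose and 2 fell (2 and 2 without VD3 replicate 2).

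Ibsp and Alpl, genes of bone formation, fell, while Enpp1 and Mgp, inhibitors of mineralization, rose. The lists these genes belong to held both rises and falls. Ibsp (bone sialoprotein) stood at 9.95, 9.73 and 8.97 RPKM with vehicle and 1.76, 1.42 and 1.61 RPKM with VD3 (log2 -2.02 ± 0.10, adjusted p = 5.31e-12). Alpl, the phosphatase that frees phosphate for mineral, stood at 4.31, 5.8 and 6.19 RPKM with vehicle, close to background, and 1.55, 1.22 and 1.78 RPKM with VD3 (log2 -1.35 ± 0.16, adjusted p = 2.12e-06). Its log2 value was no longer past the threshold after background subtraction (adjusted p = 0.0649). Runx2, the master transcription factor of the lineage, was at 6.68, 6.18 and 4.29 RPKM with vehicle and 3.19, 2.58 and 4.47 RPKM with VD3. Its groups overlapped, its adjusted p was 0.021, and its call was lost without vehicle replicates 1 and 2 or VD3 replicate 2 (adjusted p = 0.0833, 0.0733 and 0.146), with quantile normalization (0.255), after background subtraction (0.608), on only the 6 day 0 libraries (0.263) and with the largest transcript (0.126). Of the osteoblast list, 2 of 20 genes tested rose and 7 fell (1 and 5 without VD3 replicate 2). Spp1, given above, was 1 of the 2 that rose. Of the 7 list members at 20 RPKM or more in 1 group, 2 rose and 2 fell, with a median log2 value of 0.043. The median log2 value of all 20 was -0.40 and became -0.037 with quantile normalization. There was 1 rise without vehicle replicate 1 and 1 rise without vehicle replicate 2. Cdh11, a mesenchymal cadherin, went from 269 ± 12.6 to 212 ± 9.57 RPKM.

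Of the osteocyte and mineralization list, 3 of 14 genes tested rose and 4 fell (2 and 4 without VD3 replicate 2). Enpp1, which makes the mineral inhibitor pyrophosphate, stood at 27.3, 26.4 and 23.6 RPKM with vehicle and 44.8, 56.6 and 53.5 RPKM with VD3 (log2 0.97 ± 0.13, adjusted p = 1.10e-05). Mgp, the matrix Gla protein, another inhibitor of mineral, went from 459 ± 20.3 to 709 ± 57.9 RPKM (adjusted p = 0.0295), a call lost without vehicle replicates 1, 2 and 3 or VD3 replicate 2 (adjusted p = 0.0761, 0.063, 0.0658 and 0.13) or with quantile normalization (0.223). Enpp3 was the third to rise. The falls were of Alpl, of the phosphate transporter Slc20a1 (from 57.2 ± 4.26 to 37.1 ± 2.87 RPKM), of Enpp2 (autotaxin, from 12.3 ± 1.56 to 8.14 ± 0.693 RPKM) and of Ahsg (fetuin-A), below background in every vehicle library.

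Many genes of the extracellular matrix fell, and some rose. Of the matricellular and CCN proteins, which tie matrix to cell signalling, 3 of 19 genes tested rose and 11 fell (1 and 11 without VD3 replicate 2). There was 1 rise without vehicle replicate 2. Postn (periostin) stood at 251, 263 and 269 RPKM with vehicle and 78.6, 104 and 86.3 RPKM with VD3 (log2 -1.54 ± 0.099, adjusted p = 2.36e-10). Thbs2 (thrombospondin 2) went from 429 ± 8.05 to 183 ± 10.4 RPKM, the CCN proteins Wisp1 and Wisp2 from 16.5 ± 0.582 to 6.13 ± 0.194 RPKM and from 87.8 ± 1.35 to 28.4 ± 4.28 RPKM, and Tnc (tenascin C) from 12.2 ± 0.512 to 3.11 ± 0.795 RPKM, near background with VD3. The rises were small. Fbln2 (fibulin 2) went from 101 ± 4.89 to 137 ± 0.503 RPKM, Sparc from 576 ± 15.4 to 733 ± 65.3 RPKM and the fibronectin gene Fn1 from 249.6 ± 21.7 to 343 ± 28.3 RPKM. The call of Sparc was lost without vehicle replicates 1 and 2 or VD3 replicate 2 (adjusted p = 0.0522, 0.0675 and 0.145) and that of Fn1 without vehicle replicates 2 and 3 or VD3 replicates 2 and 3 (adjusted p = 0.0817, 0.132, 0.17 and 0.061).

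Of the small leucine-rich proteoglycans, which bind collagen fibrils, 0 of 9 genes tested rose and 4 fell. All 9 had a log2 value below 0, as had 15831 of the 21097 genes tested. The list's median log2 value was -0.65, or -0.37 without VD3 replicate 2 and -0.19 with quantile normalization. Over all genes these medians were -0.27, -0.09 and 0.0072. Beside Omd and Aspn the falls were of Ogn (osteoglycin) and Prelp. Ogn stood at 535, 513 and 498 RPKM with vehicle and 266, 258 and 277 RPKM with VD3 (log2 -0.95 ± 0.14, adjusted p = 5.42e-05), and Prelp was below background. Without VD3 replicate 2 the number that fell was 3. There were 7 falls without VD3 replicate 1. The call of Prelp was lost without vehicle replicates 1, 2 and 3 or VD3 replicate 2 (adjusted p = 0.068, 0.0826, 0.127 and 0.255).

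The collagens split. Of 19 genes tested 4 rose and 7 fell (2 and 7 without VD3 replicate 2). There were 2 rises without vehicle replicate 3. Col3a1, a fibrillar chain, stood at 211, 196 and 207 RPKM with vehicle and 336, 398 and 348 RPKM with VD3 (log2 0.81 ± 0.087, adjusted p = 6.68e-07), and Col8a1 went from 65.5 ± 4.44 to 89.3 ± 1.66 RPKM. The other rises were of Col4a2 and Col16a1, whose calls were lost without vehicle replicates 1 and 3 or VD3 replicate 2 (adjusted p = 0.101, 0.0911 and 0.127) and without vehicle replicate 3 or VD3 replicate 2 (adjusted p = 0.0689 and 0.0637). Col12a1, which lies on fibrils, went from 73.3 ± 3.36 to 34 ± 2.15 RPKM, and Col6a3, the third chain of collagen VI, from 98.9 ± 3.97 to 58.4 ± 5.46 RPKM, a smaller fall than those of Col6a1 and Col6a2. The median of the list was -0.31 and turned to 0.042 with quantile normalization.

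Among proteases and their inhibitors, both of the rises were of matrix metalloproteinases. Of the list, 2 of 22 genes tested rose and 6 fell (2 and 6 without VD3 replicate 2). Besides Mmp13, the stromelysin Mmp3 rose from 3.2 ± 0.393 to 8.96 ± 1.46 RPKM from below background, a call lost with log2(RPKM + 0.1) (adjusted p = 0.0793), while Timp1, an inhibitor of both enzymes, stood at 31.8, 39.5 and 22.6 RPKM with vehicle and 16.4, 14.7 and 14.9 RPKM with VD3 and fell (adjusted p = 0.00767). The hyaluronan-chain synthase Has2 and the hyaluronan-binding proteoglycan Vcan (versican), of another matrix list, fell from 11.1 ± 0.202 to 3.68 ± 2.02 RPKM and from 109.6 ± 9.72 to 69.4 ± 1.82 RPKM.

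Contractile and smooth muscle genes fell: 0 of 13 tested rose and 9 fell, the same counts without VD3 replicate 2, with a median log2 value of -0.56 (-0.48 with quantile normalization). Acta2, smooth muscle actin, stood at 693, 691 and 686 RPKM with vehicle and 419, 432 and 393 RPKM with VD3 (log2 -0.74 ± 0.073, adjusted p = 2.31e-07). Tpm1, a tropomyosin that stiffens actin filaments, stood at 644, 627 and 632 RPKM with vehicle and 331, 334 and 334 RPKM with VD3 (log2 -0.93 ± 0.084, adjusted p = 4.38e-08). Tagln (transgelin) went from 51.9 ± 5.09 to 25.2 ± 2.81 RPKM, Cnn1 (calponin) from 9.38 ± 3.32 to 4.97 ± 1.09 RPKM and the myosin light chain Myl9 from 259 ± 22.5 to 185 ± 7.79 RPKM. The groups did not overlap in any of these genes. Over the list, 11 of 13 had no overlap in this direction, beside 20.2% of all genes tested. The call of Cnn1 was lost after background subtraction (adjusted p = 0.082) and on only the 6 day 0 libraries (0.154), or the other 5 of them without VD3 replicate 2 (0.24), and that of Tpm1 with the largest transcript (0.111).

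Of the chemokines and the interleukin-1 family, 0 of 19 genes tested rose and 6 fell, again with the same counts without VD3 replicate 2. Cxcl1, which draws neutrophils, stood at 20.9, 23.1 and 22.6 RPKM with vehicle and 6.37, 7.15 and 4.91 RPKM with VD3 (log2 -1.71 ± 0.17, adjusted p = 3.48e-07). Ccl2, the neighbour of Ccl7 and also a monocyte attractant, went from 20.6 ± 1.26 to 8.89 ± 2.35 RPKM. Of the receptors, Il1rl1, which binds interleukin-33, went from 19.2 ± 0.767 to 8.12 ± 1.73 RPKM and Il1r1, the interleukin-1 receptor, from 7.64 ± 0.507 to 3.72 ± 0.808 RPKM. Il1rn, given above, completes the 6. Of the marrow stromal markers, 0 of 12 tested rose and 5 fell (3 without VD3 replicate 2): Cxcl12, Ly6a, Vcam1, Cd44 and Prrx1. Ly6a (Sca-1) stood at 45.7, 61.9 and 34.1 RPKM with vehicle and 10.9, 12.4 and 18 RPKM with VD3 (log2 -1.70 ± 0.28, adjusted p = 2.79e-04), and Cd44, the hyaluronan receptor, and Prrx1, a mesenchymal transcription factor, lost their calls without VD3 replicate 2 (adjusted p = 0.0644) and without vehicle replicates 1, 2 and 3 or VD3 replicate 2 (adjusted p = 0.0695, 0.0553, 0.062 and 0.0606).

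Most cell cycle genes fell. Of 28 genes of DNA replication and mitosis tested 0 rose and 23 fell, or 0 and 18 without VD3 replicate 2, against 11.0% and 4.41% of all genes. Their median log2 value was -0.61 and stayed between -0.52 and -0.61 under the 4 scalings tried. There was 1 rise without vehicle replicate 2. Rrm2, the ribonucleotide reductase subunit that supplies nucleotides for replication, stood at 32.4, 25 and 25.2 RPKM with vehicle and 11.2, 10.4 and 9.11 RPKM with VD3 (log2 -1.34 ± 0.13, adjusted p = 1.18e-07). Mcm5, part of the replicative helicase, went from 13.1 ± 1.36 to 6.05 ± 0.70 RPKM, and the topoisomerase Top2a from 40.0 ± 2.0 to 23.2 ± 0.674 RPKM. The mitotic genes Ccnb1 (cyclin B1), Cdc20 and Birc5 (survivin) went from 25.3 ± 1.0 to 12.6 ± 1.07 RPKM, from 12.7 ± 1.45 to 6.04 ± 0.61 RPKM and from 10.7 ± 0.265 to 5.65 ± 0.253 RPKM, and the proliferation marker Mki67 from 18.1 ± 1.32 to 10.4 ± 1.8 RPKM. In each of these 7 genes every VD3 library lay below every vehicle library. The same held for 24 of the 28 genes of the list, beside 20.2% of all genes tested.

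Inhibitors of cyclin-dependent kinases and p53-induced genes moved the other way: 9 of 14 tested rose and 1 fell, or 7 and 1 without VD3 replicate 2, with a median log2 value of 0.42. Sesn1 (sestrin 1), a p53-induced stress protein, stood at 18.6, 14.9 and 16.3 RPKM with vehicle and 43.1, 48.5 and 44 RPKM with VD3 (log2 1.39 ± 0.12, adjusted p = 3.12e-08). Cdkn2b (p15), an inhibitor of the G1 kinases, went from 49.3 ± 4.57 to 80.7 ± 6.08 RPKM, Gadd45a, a growth arrest gene, from 50.0 ± 4.54 to 81.6 ± 4.26 RPKM, and Mdm2, which limits p53, from 52.7 ± 2.59 to 70.7 ± 3.9 RPKM. The gene that fell was Gadd45g (from 35 ± 3.2 to 15.5 ± 0.565 RPKM). Pmaip1, among the 10 largest rises, is a p53-induced gene outside this list.

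Some of the lists where 0 genes rose by limma were also counted at an unadjusted p below 0.05. Higher were 0 of the proteoglycans, 0 of the smooth muscle genes, 0 of the chemokine list, 0 of the stromal markers and 1 of the cell cycle genes. Over all genes, 1376 of 21097 were higher at that threshold. In any single list this small, a count of 0 or 1 cannot be told apart from that share.

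**Figure D3:**
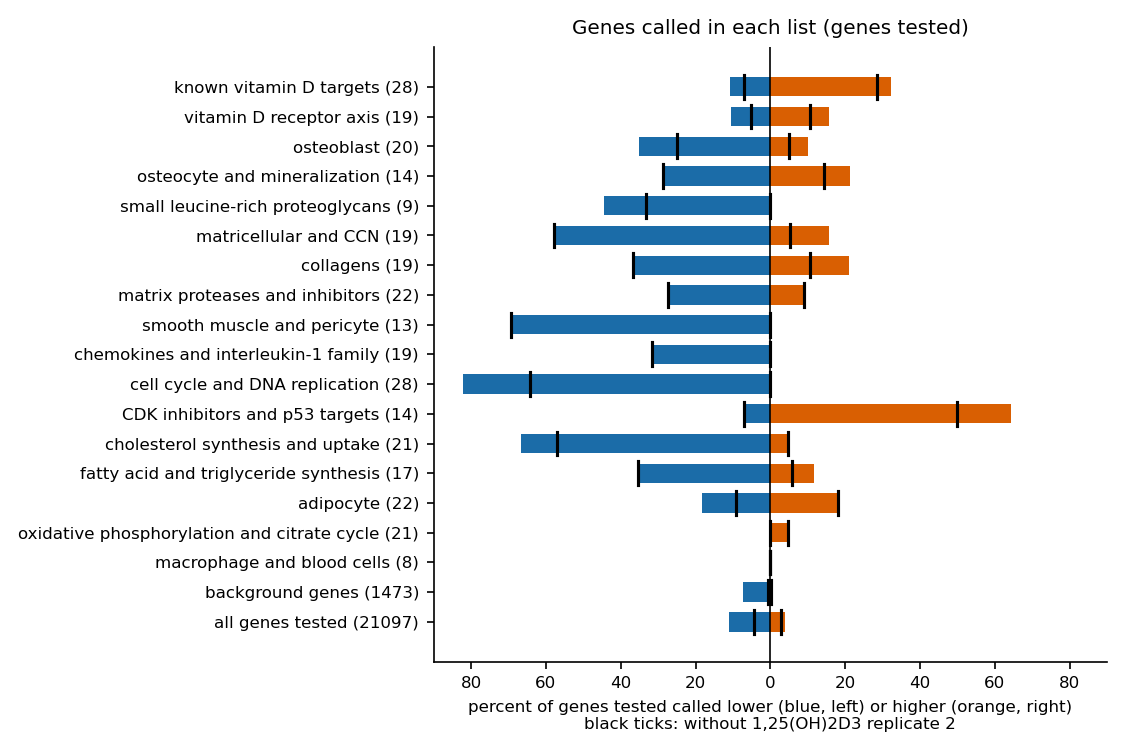
Percent of tested genes that fell (blue, left) or rose (orange, right) in 17 gene lists, in the background genes and in all genes tested, with the number tested in brackets and black ticks at the percent without VD3 replicate 2. Cell cycle genes fell in 23 of 28 cases and CDK inhibitors and p53 targets rose in 9 of 14, beside 11.0% and 3.98% of all genes.

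**Figure D4:**
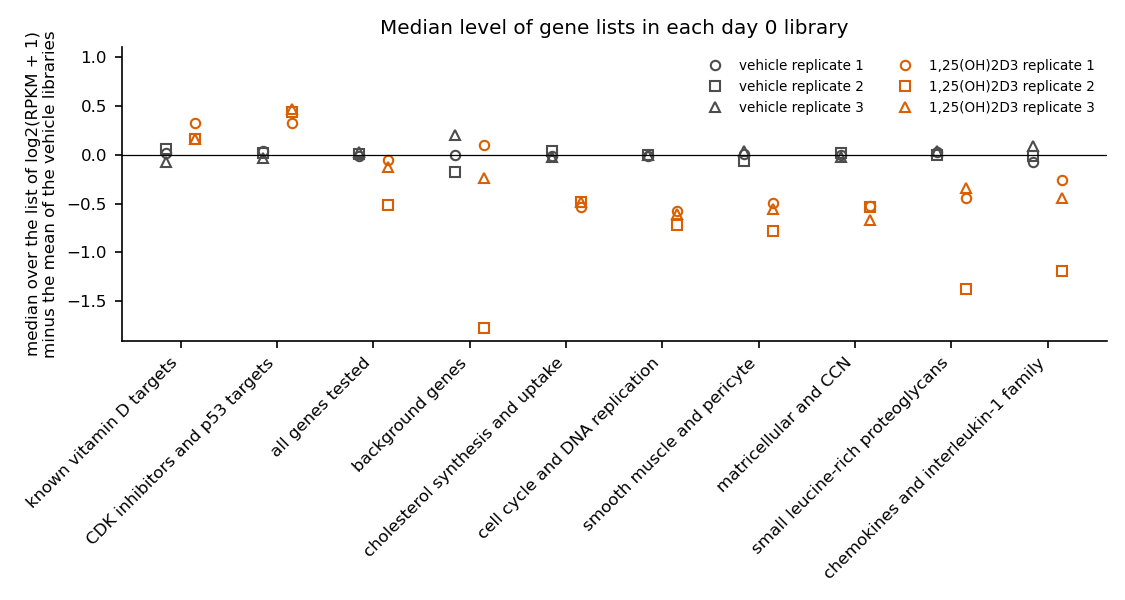
Median over each gene list of log2(RPKM + 1) minus the mean of the vehicle libraries, 1 point a day 0 library (grey vehicle, orange 1,25(OH)2D3, symbol by replicate). VD3 replicate 2 (square) stands apart at -1.77 on background genes, -1.38 on the proteoglycans and -1.19 on the chemokines, whereas on cholesterol, cell cycle and matricellular genes the 3 VD3 libraries lie together.

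Most sterol genes fell. Of the cholesterol synthesis and uptake list, 1 of 21 genes tested rose and 14 fell (1 and 12 without VD3 replicate 2), with a median log2 value of -0.54. The medians in VD3 replicates 1, 2 and 3 were -0.53, -0.48 and -0.48. Insig1, which holds the sterol sensor in the endoplasmic reticulum and is itself raised when sterols are low, stood at 197, 208 and 192 RPKM with vehicle and 105, 102 and 98.6 RPKM with VD3 (log2 -0.96 ± 0.089, adjusted p = 6.01e-08). Insig2, its paralog, was the gene that rose, at 35.1, 31.9 and 30.8 RPKM with vehicle and 80.0, 74.8 and 74.5 RPKM with VD3 (log2 1.21 ± 0.078, adjusted p = 2.68e-10). Among the enzymes Idi1 went from 50.3 ± 2.52 to 26.1 ± 1.48 RPKM and Cyp51 from 67.7 ± 1.13 to 41.7 ± 3.24 RPKM. Abca1, counted among the 14 falls, exports cholesterol rather than making it or taking it up. It went from 11.3 ± 0.923 to 3.64 ± 0.763 RPKM.

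Some genes of fatty acid synthesis fell too, and those of adipocytes were mixed. Of the first, 2 of 17 tested rose and 6 fell, or 1 and 6 without VD3 replicate 2. There was 1 rise without vehicle replicate 1 and 1 rise without vehicle replicate 2. The desaturases Scd1 and Scd2, which make monounsaturated fatty acids, went from 136 ± 11.7 to 89.7 ± 2.19 RPKM and from 205 ± 16.1 to 121 ± 5.16 RPKM, and the malic enzyme Me1 from 41.6 ± 3.07 to 28.6 ± 0.574 RPKM. The rises were of the acyltransferases of triglyceride synthesis, Dgat1 (from 4.18 ± 0.451 to 8.35 ± 0.384 RPKM) and Dgat2 (from 0.927 ± 0.252 to 2.04 ± 0.724 RPKM, below background with vehicle and lost without vehicle replicates 1 and 2 or VD3 replicate 2 (adjusted p = 0.083, 0.0573 and 0.178)). Of the adipocyte list 4 of 22 genes tested rose and 4 fell (4 and 2 without VD3 replicate 2). There were 9 falls without VD3 replicate 1, 7 falls without vehicle replicate 1 and 2 falls without vehicle replicate 3. Plin4, a lipid droplet coat protein, stood at 72.2, 69.8 and 66 RPKM with vehicle and 32.7, 38.2 and 35.2 RPKM with VD3 (log2 -0.95 ± 0.12, adjusted p = 5.20e-06), and the adipokine Adipoq went from 26.4 ± 1.29 to 16.4 ± 1.91 RPKM. The other falls, of Plin1 and Cidec, were below background. Cebpd, an early transcription factor of adipogenesis, rose from 5.34 ± 0.135 to 11.4 ± 0.571 RPKM, lipoprotein lipase Lpl from 235 ± 4.12 to 365 ± 13 RPKM and the droplet protein Plin2 from 89.9 ± 2.51 to 139 ± 11.1 RPKM, and the fourth was Klf15, below background in 5 of 6 libraries. The main adipogenic factors did not pass the test. Pparg stood at 29, 32.5 and 34.4 RPKM with vehicle and 33, 32.4 and 28.9 RPKM with VD3 (log2 -0.024 ± 0.11, adjusted p = 0.884), and Cebpa and Cebpb at 72.4 ± 11.7 and 25.7 ± 14.5 RPKM with vehicle against 60.2 ± 13.2 and 32 ± 4.59 with VD3 (adjusted p = 0.223 and 0.204). Cebpb varied widely among the vehicle libraries (23.9, 41 and 12.2 RPKM) and passed without vehicle replicate 2 (adjusted p = 0.00673), as did Cebpa, towards lower values, without VD3 replicate 1 (0.0466).

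Secreted regulators of Wnt and TGF-β signalling changed in both directions. Of the Wnt list, 2 of 19 genes tested rose and 4 fell (2 and 4 without VD3 replicate 2). The antagonists Sfrp1, Sfrp2 and Dkk3 fell. Sfrp1 stood at 232, 245 and 219 RPKM with vehicle and 111, 112 and 115 RPKM with VD3 (log2 -1.04 ± 0.094, adjusted p = 4.31e-08), Sfrp2 went from 15.2 ± 1.36 to 3.59 ± 0.767 RPKM and Dkk3 from 65.8 ± 1.14 to 38.6 ± 3.27 RPKM. The ligand Wnt5b, the fourth to fall, lay below background in 5 of 6 libraries. Beside Lrp5 the ligand Wnt5a rose, from 15.8 ± 0.237 to 20.7 ± 1.76 RPKM. Of the TGF-β list 4 of 13 tested rose and 4 fell (3 and 4 without VD3 replicate 2). Fst (follistatin), which binds and blocks activins, stood at 9.44, 9.11 and 10.9 RPKM with vehicle and 31.2, 30.3 and 29.4 RPKM with VD3 (log2 1.54 ± 0.17, adjusted p = 1.18e-06), while Inhba, the activin A subunit gene, went from 24.4 ± 1.37 to 10.2 ± 0.594 RPKM. The receptor Tgfbr2 rose from 20.2 ± 2.25 to 38.6 ± 1.47 RPKM and the TGF-β-induced matrix protein Tgfbi fell from 32.3 ± 1.4 to 13.3 ± 0.961 RPKM. The others were Ltbp2 and Smad3 among the rises and Ltbp1 and Tgfbr1 among the falls, and the call of Smad3 was lost without vehicle replicate 3 or VD3 replicate 2 (adjusted p = 0.182 and 0.165).

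The response at day 0 was then set against that of the differentiated cells. The test was of the day 0 effect minus the mean effect of the 3 differentiated states, which share no library with it. Background medians were 3.39 to 4.93 RPKM in 5 of the 6 day 0 libraries and 0.208 to 1.3 RPKM in the differentiated ones. For genes of low level, cell state thus cannot be told apart from background in this difference. Of all genes, 310 had a higher value at day 0 (1.47%) and 1068 a lower one (5.06%), and of those averaging at least 20 RPKM at day 0 203 (6.1%) and 151 (4.54%). Without VD3 replicate 2 these were 164 and 338 over all genes. Within the other states, VD3 raised 614 (2.91%) and lowered 496 genes (2.35%) on osteogenic day 7, 111 (0.526%) and 52 (0.246%) on osteogenic day 15, and 318 (1.51%) and 121 (0.574%) on adipogenic day 7. All 20 of the largest changes, of which 19 are given above, differed past the threshold, each further from 0 at day 0 than the mean of the others, a property that their choice as the largest at day 0 favours.

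Mmp13 had the largest difference, 2.79 ± 0.14 (adjusted p = 3.71e-11). Its log2 value was 3.87 at day 0, 2.62 on osteogenic day 7, 1.21 on osteogenic day 15 and -0.59 on adipogenic day 7, where it fell (adjusted p = 0.0057). Its vehicle level was 13.7 ± 1.38 RPKM at day 0, 48 ± 8.47 on osteogenic day 7, 65 ± 5.16 on day 15 and 26.1 ± 1.8 on adipogenic day 7. Cib2 followed the same order, with 3.40, 1.92, 0.95 and 0.36, whereas Inmt rose in all 4 states. Ttc39c rose at day 0 and on adipogenic day 7 (2.15, adjusted p = 2.35e-08) and had values of -0.037 and -0.16 on osteogenic days 7 and 15.

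Among the falls, Olfml3 differed by -1.81 ± 0.11 (adjusted p = 1.19e-09), with values of -0.39, -0.22 and -0.16 in the other states. Its vehicle levels were 109 ± 7.48 RPKM at day 0 and 107 ± 8.4 on osteogenic day 7. Omd differed from the mean, but adipogenic day 7 was close to day 0: its log2 value was -2.96 on adipogenic day 7, beside -2.84 at day 0, and -0.55 and -0.42 on osteogenic days 7 and 15. Cyp24a1 and Spp1 did not differ past the threshold. For Cyp24a1 the difference was -0.61 ± 0.22 (adjusted p = 0.0847), with effects of 2.45, 4.22, 3.26 and 1.71. It passed with log2(RPKM + 0.1), at -2.10 (adjusted p = 0.0374), and without vehicle replicate 3, at -0.83 (adjusted p = 0.0367), and turned to 0.26 with quantile normalization. For Spp1 it was -0.058 ± 0.11 (adjusted p = 0.741), with effects of 0.90, 0.99, 0.90 and 0.99, the closest 4 values of the genes plotted.

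**Figure D5:**
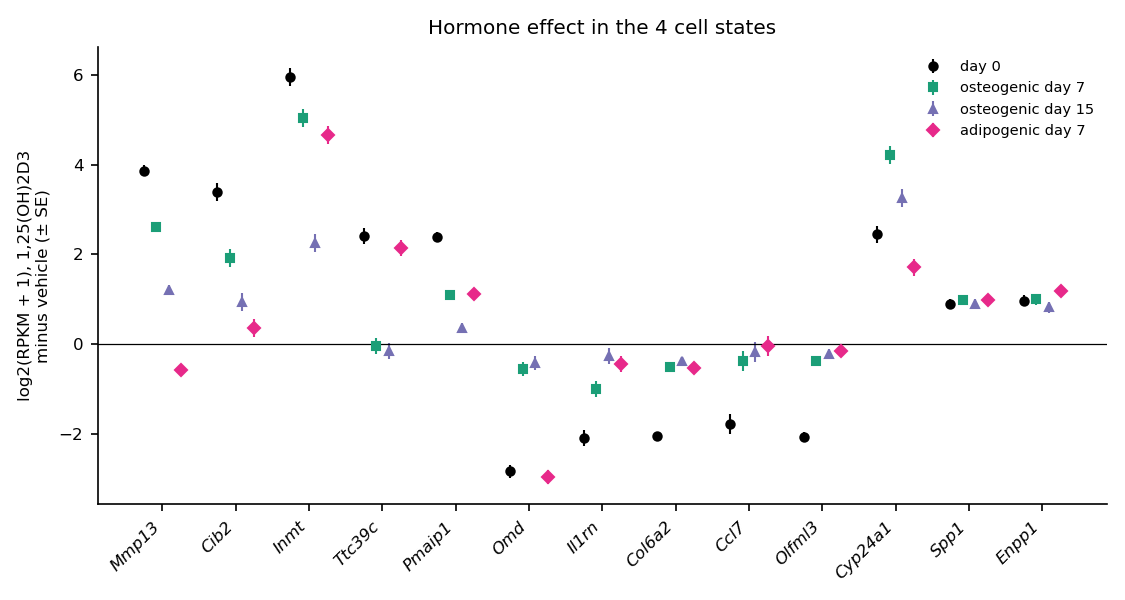
Hormone effect ± SE on the log2(RPKM + 1) scale in the 4 cell states for the 5 genes with the largest differences each way and for Cyp24a1, Spp1 and Enpp1. Mmp13 falls from 3.87 at day 0 through 2.62 and 1.21 to -0.59 on adipogenic day 7, whereas Spp1 stays between 0.90 and 0.99.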

How the data were processed

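The members (the 6 day 0 libraries), gene lists and rule for naming genes were chosen with earlier results of these data known. Per the labels' protocols, ribosomal RNA was depleted and directional ScriptSeq libraries were made. Per the submitters' processing notes, TopHat and mm9 were used. The quantification tool, annotation and strand setting are not given in the sources used here. The authors deposited RPKM per transcript, 30795 a library. Here these were summed by symbol, leaving out 40 transcripts whose symbols had become dates (25385 genes). The test was limma 3.58.1 (R 4.3.3) over genes that reached 1 RPKM in 3 or more of the 24 libraries, on the log2(RPKM + 1) scale, with 8 groups of 3, trend and robust empirical Bayes, two-sided. The fold change understates low genes. Depth was estimated from whole-read steps in low values. At day 0, 3 reads on 1 kilobase are 0.0783 to 0.423 RPKM, and this covers counting error only. No 2 libraries were identical. In simulated data (21097 genes) noise was normal and independent between genes, with no library of lower background. The changed genes were drawn from those averaging at least 20 RPKM at day 0. On these data the test recovered 59% of 100 genes changed 1.5-fold and 90% of 100 changed 2-fold, with 3 false calls. These figures do not cover low genes or a library such as VD3 replicate 2.

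Genes named are the 10 largest rises and falls past the threshold whose higher group averaged 20 RPKM or more and whose groups did not overlap, without predicted, RIKEN-named and clone-named, receptor-background, small RNA, histone and pseudogene symbols; 15 genes fixed by name; of each of 35 lists up to 4 called members with the largest change and at least 5 RPKM; and the 5 largest differences from the differentiated states each way. Of these some lists and members are not reported here. Genes named beyond it, to complete a list's count or as examples, were chosen after their values were seen: Thbd, Cdh11, Slc20a1, Enpp2, Ahsg, Gc, Thbs2, Wisp1, Sparc, Fn1, Fbln2, Prelp, Col6a3, Col8a1, Col4a2, Col16a1, Myl9, Ccl2, Il1r1, Prrx1, Top2a, Birc5, Mki67, Mdm2, Cyp51, Dgat2, Plin1, Plin2, Cidec, Klf15, Wnt5a, Wnt5b, Ltbp1, Ltbp2, Smad3, Tgfbr1, Irs2, Pappa, Junb, Eng, Thy1, Nt5e, Ecm2, Aldoa, Pgk1, Eno1, Kdr, Tek, Col2a1, Col10a1 and Acta1. Genes were matched by symbol, without coordinates, except that promoter windows come from RefSeq on GRCm38.p6. Near-identical or overlapping genes could share reads, and strand use in counting is not known, so antisense partners cannot be told apart. Alternatives were another pseudocount, filters, scalings, background subtraction, a replicate block, plain empirical Bayes, only the day 0 libraries, the largest transcript and leaving out each library. A further 2 that leave out VD3 replicate 2 were added after seeing the data.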

Additional observations from a re-analysis of the deposited data

Results flagged for a closer look

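In 14 genes the hormone effect at day 0 differed from the mean effect of the 3 differentiated states by a limma test of that difference, in log2(RPKM + 1). Towards higher values at day 0 these were Mmp13 2.79 ± 0.14 (adjusted p = 3.71e-11), Cib2 2.32 ± 0.24 (adjusted p = 1.95e-06), Inmt 1.97 ± 0.23 (adjusted p = 1.45e-05), Ttc39c 1.76 ± 0.20 (adjusted p = 8.30e-06) and Pmaip1 1.54 ± 0.13 (adjusted p = 9.29e-08). Towards lower values they were Olfml3 -1.81 ± 0.11 (adjusted p = 1.19e-09), Ccl7 -1.59 ± 0.25 (adjusted p = 5.52e-04), Col6a2 -1.58 ± 0.11 (adjusted p = 5.04e-09), Il1rn -1.53 ± 0.21 (adjusted p = 7.42e-05) and Omd -1.53 ± 0.17 (adjusted p = 8.96e-06). Among genes known for their link to the hormone or to bone, Enpp3 0.56 ± 0.16 (adjusted p = 0.0399) and Lrp5 0.59 ± 0.16 (adjusted p = 0.0369) had higher values at day 0 than the mean of the other states. With log2(RPKM + 0.1) these were 0.11 (adjusted p = 0.824) and 0.66 (0.0743), so neither passed. On that scale the difference of Inmt was 1.58 (adjusted p = 0.075), also not past the threshold. The difference of Ibsp 0.49 ± 0.12 (adjusted p = 0.0195) stands beside log2 values of -2.02 at day 0 and -1.57, -1.32 and -4.64 in the other states. It was 0.12 with log2(RPKM + 0.1) (adjusted p = 0.547), 0.096 with quantile normalization (0.815) and 0.31 after background subtraction (0.378), past the threshold in none of these. The last, Alpl -1.37 ± 0.18 (adjusted p = 5.90e-05), had other values of 0.21, -0.29 and 0.13 on osteogenic days 7 and 15 and adipogenic day 7, none past the threshold. It was lost after background subtraction (adjusted p = 0.149). Background was higher at day 0 than in the other states except in VD3 replicate 2, as given above. The difference of Enpp3 was lost without vehicle replicates 2 and 3 or VD3 replicates 2 and 3 (adjusted p = 0.0768, 0.114, 0.141 and 0.0506), that of Lrp5 without vehicle replicates 2 and 3 or VD3 replicate 2 (adjusted p = 0.0535, 0.126 and 0.141) and that of Ibsp without vehicle replicate 3 (adjusted p = 0.0648).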

How the results depend on the processing

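Of the 20 largest changes, the 19 named kept direction and call in all 357 alternative values. Genes that rose at day 0 over all genes numbered 840 and genes that fell 2328. They were 1325 and 962 with quantile normalization, 1437 and 664 after background subtraction, 497 and 392 when only the 3326 genes averaging 20 RPKM or more were tested, and 389 and 440 on 5 libraries without VD3 replicate 2. Falls numbered 1003 with log2(RPKM + 0.1), 1132 with a filter at 5 RPKM, 565 on only the 6 day 0 libraries, and 877 without VD3 replicate 2 with median-ratio rescaling. Leaving out 1 library gave 595 (without VD3 replicate 2) to 905 rises and 930 (the same) to 6112 falls (without VD3 replicate 1). For the difference from the differentiated states (310 higher, 1068 lower), the counts were 610 and 406 with quantile normalization, 789 and 276 after background subtraction and 189 and 326 without VD3 replicate 2 with median-ratio rescaling. Lower ones numbered 350 with log2(RPKM + 0.1), 478 with the 5 RPKM filter and 176 among those averaging 20 RPKM or more. Leaving out 1 library gave 164 (without VD3 replicate 2) to 476 and 338 to 5280 (without VD3 replicate 1). Where causes are not given by the setting itself, the cause was not tested.

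With replicate number as a block, 721 rose and 1750 fell, and 201 and 512 differed from the other states. Same-numbered deviations correlated at -0.081, 0.166 and 0.166, within the -0.246 to 0.221 of the other pairs. This gave no sign that the numbers pair the libraries, but so few libraries cannot exclude it.

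Signs turned for Igfbp3 (0.18 with quantile normalization, 0.056 after background subtraction, 0.0018 without VD3 replicate 2 with median-ratio rescaling), Pparg (0.041 after background subtraction, -0.0905 to 0.034 on leaving out 1 library, above 0 without vehicle or VD3 replicate 3), Plin1 (0.031, quantile normalization), Col10a1 and Wnt5b (0.17 and 0.050, background subtraction), and the Cyp24a1 difference (0.26 with quantile normalization, 0.38 after background subtraction). Among genes named in the text, calls were lost with log2(RPKM + 0.1) for Ahsg, Cidec, Col2a1, Dgat2, Eno1, Fn1, Gc, Ifit2, Igf1, Mmp3, Pappa, Pdia3, Pgk1, Plin1, Prelp, Smad3, Tek and Vdr, with quantile normalization for Acta1, Ahsg, Aldoa, Cidec, Col10a1, Col2a1, Dgat2, Eno1, Fn1, Gc, Igf1, Kdr, Mgp, Pappa, Pdia3, Pgk1, Prelp, Runx2, Sparc, Tek and Wnt5b, after background subtraction for Acta1, Alpl, Cidec, Cnn1, Dgat2, Egr2, Igf1, Kdr, Klf15, Pappa, Pdia3, Plin1, Prelp, Runx2 and Tgfbr1, on only the 6 day 0 libraries for Ahsg, Cnn1, Col10a1, Col16a1, Col2a1, Col4a2, Dgat2, Dusp1, Egr2, Eno1, Gc, Has2, Ifit2, Igf1, Irs2, Junb, Kdr, Klf15, Pappa, Pgk1, Prelp, Runx2, Rxrb, Smad3, Tek, Tgfbr1, Vdr, Wnt5a and Wnt5b, and with the largest transcript for Aldoa, Cd44, Igf1, Pdia3, Plin1, Runx2 and Tpm1. With replicate number as a block, calls were lost for Acta1, Cidec, Col4a2, Dgat2, Fn1, Pdia3, Pgk1, Plin1, Prelp, Smad3, Sparc and Vdr. The differences of Enpp3 and Ibsp were lost there too. Plain empirical Bayes lost Col4a2, Eno1, Fn1, Ifit2, Igf1, Pdia3 and Pgk1. Median-ratio rescaling and no filter each lost Igf1 and Pdia3, and the 5 RPKM filter lost Acta1 and Plin1. Depth and background limit genes below about 5 RPKM, where a change cannot be told apart from the background's.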

Other observations

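Genes that lie next to each other in the RefSeq gene order changed in the same direction in 4 places described above, noticed after the values were seen. The share of all neighbouring genes that change together was not measured, so these places are a description only. On chromosome 13 the proteoglycan genes Aspn, Omd and Ogn, with no protein-coding gene between them, fell by log2 2.09, 2.84 and 0.95, while the next gene, Ecm2, was at -0.32 and did not pass the test (adjusted p = 0.233). On chromosome 10 Col6a1 and Col6a2 both fell and the pyrophosphatase genes Enpp1 and Enpp3 both rose, and on chromosome 11 Ccl2 and Ccl7 both fell. The pairs can share reads only where transcripts overlap, which was not examined here.

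Of the glycolysis and hypoxia list 5 of 20 tested rose and 2 fell, or 2 and 2 without VD3 replicate 2. There were 3 rises without vehicle replicate 2 and 2 rises without vehicle replicate 3. Vegfa, the endothelial growth factor, stood at 88.3, 89.5 and 86.7 RPKM with vehicle and 185, 188 and 179 RPKM with VD3 (adjusted p = 3.97e-07), and Hk1 (hexokinase 1) rose from 23.5 ± 1.47 to 40.8 ± 4.26 RPKM while Hk2 fell from 12.1 ± 0.793 to 7.44 ± 0.723 RPKM and Pfkp (phosphofructokinase) from 10.0 ± 0.757 to 5.52 ± 0.583 RPKM. The other rises were of Aldoa, Pgk1 and Eno1, whose calls were lost without vehicle replicate 3 or VD3 replicate 2 (adjusted p = 0.0521 and 0.0574), without vehicle replicates 1, 2 and 3 or VD3 replicates 1 and 2 (adjusted p = 0.105, 0.10, 0.0575, 0.0532 and 0.21) and without vehicle replicates 2 and 3 or VD3 replicate 2 (adjusted p = 0.0772, 0.122 and 0.21). Of 21 genes of oxidative phosphorylation and the citrate cycle 1 rose and 0 fell, by limma, with 1 and 0 without VD3 replicate 2. That is a share of 4.76% against 3.98% of all genes that rose. Of the 16 at 20 RPKM or more in 1 group, 1 rose, beside 505 of 3584 such genes in all. The gene that rose was Idh3a, an isocitrate dehydrogenase subunit, at 21.3, 16.9 and 21.1 RPKM with vehicle and 40.8, 43.1 and 40.3 with VD3 (adjusted p = 5.85e-08).

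Of the immediate early genes 2 of 19 tested rose and 6 fell (1 and 5 without VD3 replicate 2), against 3.98% and 11.0% of all genes, and after background subtraction 2 rose and 2 fell of 18. The transcription factors Egr1, Egr2 and Klf4 fell from 7.54 ± 0.386 to 3.65 ± 0.554 RPKM, from 5.16 ± 1.49 to 1.87 ± 0.675 RPKM and from 9.96 ± 2.08 to 3.29 ± 0.285 RPKM, all to near background, and Egr2 lost its call after background subtraction (adjusted p = 0.165) and on only the 6 day 0 libraries (0.102). The rises were of Junb (from 7.78 ± 0.994 to 11 ± 1.01 RPKM), lost without vehicle replicate 1 (adjusted p = 0.0816), and of Dusp1, a phosphatase of MAP kinases (from 3.21 ± 0.841 to 5.39 ± 0.402 RPKM), lost without vehicle replicate 1 or VD3 replicate 2 (adjusted p = 0.104 and 0.0846). Of the interferon-responsive genes 2 of 17 rose and 0 fell (1 and 0 without VD3 replicate 2). Among the 11 at 20 RPKM or more in 1 group, 1 rose, beside 505 of 3584 such genes in all. Rsad2 (viperin) went from 8.34 ± 1.7 to 18.1 ± 2.57 RPKM, and Ifit2 from 29.4 ± 2.65 to 40.7 ± 5.71 RPKM, lost without vehicle replicates 1, 2 and 3 or VD3 replicates 2 and 3 (adjusted p = 0.114, 0.0606, 0.0563, 0.117 and 0.0982). Of the IGF list 3 of 12 rose and 2 fell (3 and 0 without VD3 replicate 2). Igfbp4, which binds IGF, went from 102 ± 11.6 to 186 ± 11.3 RPKM, the receptor Igf2r from 42.7 ± 0.619 to 61.2 ± 2.06 RPKM and the adaptor Irs2, from below background, from 1.28 ± 0.718 to 4.37 ± 0.692 RPKM, while Igf1 and Pappa, the protease of Igfbp4, fell and were each lost without VD3 replicate 2 (adjusted p = 0.393 and 0.214) or any of the vehicle replicates.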
